A study of Rattus norvegicus with 5 samples.

Results

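The genes described here were 9 transcription factors that mark midbrain dopamine neurons and are needed to form or keep them. They were *En1*, *Pitx3*, *Nr4a2*, *Lmx1a*, *Lmx1b*, *Foxa1*, *Foxa2*, *Otx2* and *Sox6*, 9 of the 32883 genes listed in the count matrices, taken by name. Each name matched 1 Ensembl identifier. The data were snRNA-seq libraries of the ventral tegmental area (VTA), 1 library from each of 5 adult male Sprague-Dawley rats, called rats 1 to 5 here. The study describes the animals as drug-naïve, the sample labels give saline as the treatment, and the bilateral punches of a rat were combined into 1 sample. There was 1 condition, so the comparisons are between classes of nuclei within rats, and the labels name no wild-type allele, transgene or driver line. A nucleus was a barcode with at least 1000 unique molecular identifiers (UMIs, 1 per captured RNA molecule), more than 200 and fewer than 5000 genes, and under 5% of its UMIs from mitochondrial genes.

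Midbrain dopamine neurons arise from the floor plate, where *Foxa1* and *Foxa2* (forkhead factors) and *Lmx1a* and *Lmx1b* (LIM-homeodomain factors) specify the progenitors. *Nr4a2* (an orphan nuclear receptor, also called Nurr1) and *Pitx3* (a bicoid-type homeodomain factor) then turn on genes of dopamine synthesis and storage, and *En1* (an engrailed-type homeodomain factor) supports the survival of these neurons. *Sox6* (an SRY-box factor) and *Otx2* (a homeodomain factor) mark different dopamine neurons in the adult midbrain, with *Sox6* better known from the substantia nigra and *Otx2* from the VTA.

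The promoters below are the 250 bases before the RefSeq start site of 4 of these genes on GRCr8. Those of *En1* and *Sox6* are shown because they were the only ones of the 7 genes with a RefSeq promoter in which 1 of 5 short motifs was found, and those of *Nr4a2* and *Foxa2* because these genes had the most similar levels across classes of nuclei, described further on. Capitals mark the motif. The letters are reference sequence matched by gene symbol and do not come from these libraries.
En1 (chr13:34303434-34303683, forward strand): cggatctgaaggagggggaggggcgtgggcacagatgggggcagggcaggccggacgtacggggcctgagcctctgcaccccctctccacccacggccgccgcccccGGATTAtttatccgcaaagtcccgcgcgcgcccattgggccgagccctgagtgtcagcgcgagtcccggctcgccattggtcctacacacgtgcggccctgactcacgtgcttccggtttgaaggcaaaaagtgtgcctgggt
Sox6 (chr1:179665372-179665621, reverse strand): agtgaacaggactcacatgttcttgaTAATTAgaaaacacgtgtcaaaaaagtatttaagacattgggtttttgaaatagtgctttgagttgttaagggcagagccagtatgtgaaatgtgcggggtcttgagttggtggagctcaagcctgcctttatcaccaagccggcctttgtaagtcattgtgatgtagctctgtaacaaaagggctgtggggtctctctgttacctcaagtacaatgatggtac
Nr4a2 (chr3:62104888-62105137, reverse strand): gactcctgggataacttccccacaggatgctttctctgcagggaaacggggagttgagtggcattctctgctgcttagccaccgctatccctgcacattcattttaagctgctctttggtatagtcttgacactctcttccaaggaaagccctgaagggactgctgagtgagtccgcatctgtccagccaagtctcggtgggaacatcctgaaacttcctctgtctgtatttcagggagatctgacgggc
Foxa2 (chr3:155927509-155927758, reverse strand): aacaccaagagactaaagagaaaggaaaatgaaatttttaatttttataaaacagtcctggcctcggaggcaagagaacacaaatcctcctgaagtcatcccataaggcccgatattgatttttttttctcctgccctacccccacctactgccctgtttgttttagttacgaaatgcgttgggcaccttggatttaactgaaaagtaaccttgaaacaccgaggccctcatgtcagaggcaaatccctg
Both strands were searched, in the same window of 33469 promoters. The *En1* window held TAATCC, a bicoid-type homeodomain motif, on the opposite strand 143 bases before the start, as 6.34% of all promoters did. The *Sox6* window held the LIM-type homeodomain motif TAATTA, which reads the same on both strands, 224 bases before the start, as did 4.86% of promoters. The *Nr4a2* and *Foxa2* windows, and those of *Pitx3*, *Lmx1a* and *Lmx1b*, held neither of these, nor the NBRE AAAGGTCA (1.24% of promoters), the forkhead motif TGTTTAC (3.21%) or the SOX motif AACAAT (10.3%). A match is a run of letters and not a shown binding site.

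The 5 libraries held 10193355 to 88576210 UMIs, and 22084 barcodes passed the filter, with a median of 1605.5 to 3526 UMIs per barcode. Classes were built per library by clustering, with 46 genes, these 9 and the lists of other regulators and dopamine neuron genes, left out of the clustering, and were named from marker genes. Dopaminergic-like neurons numbered 19, 294, 287, 133 and 162 in rats 1 to 5, *Slc17a6* (vesicular glutamate transporter) neurons 30, 402, 325, 215 and 111, and *Gad1* (GABA synthesis) neurons 32, 770, 549, 247 and 412. Some clusters of mixed type, which entered no class or test, had *Slc6a3* among their leading genes, in rats 1 (114 barcodes), 2 (249) and 3 (62). Those of rats 1 and 2 also had *Slc18a2* and *Th*. The dopaminergic-like class carried its markers at 6.01 ± 0.83 (*Th*), 7.06 ± 2.12 (*Slc6a3*), 3.40 ± 0.95 (*Slc18a2*) and 13.8 ± 2.11 (*Ddc*) UMIs per 10000 (mean ± SD of rats 2 to 5, n = 4), and the summed level of the noradrenergic markers *Dbh* and *Slc6a2* was 0 in each of these rats. Rat 1, with 19 dopaminergic-like nuclei, is given as values only and entered no main test of that class, so each such test rests on at most 4 rats. These 19 nuclei held 119615 UMIs in all, so the lower values of rat 1 rest on few UMIs. With doublets kept, 0 nuclei of rat 1 were named dopaminergic-like. Among the alternative fits, rat 1 entered those with neurons typed by their own UMIs (54 nuclei) or low-depth sub-clusters kept (63 nuclei). Where whole classes were compared, these fits rest on 5 rats. The *Slc17a6* neurons were mixed in their markers. They held *Slc17a6* at 2.05, 1.74, 2.57, 1.36 and 1.33 per 10000 in rats 1 to 5 and *Gad2*, a GABA synthesis gene, at 0.844, 1.59, 0.780, 1.74 and 2.30, more than *Slc17a6* in rats 4 and 5. Their 4 dopaminergic markers summed to 4.26 to 7.33, beside 27.2 to 35.3 in dopaminergic-like (rats 2 to 5) and 0.808 to 5.13 in *Gad1* neurons, and the part of this mixture in the levels below was not tested. The *Gad1* neurons of rat 2 included a sub-cluster of 38 nuclei with oligodendrocyte genes such as *Mog* (5.67 per 10000) among its leading genes, *Ddc* at 3.01 and *Lmx1a* at 0.865, which was not set aside. Rat 3 was shallow, with a median of 1806 UMIs in dopaminergic-like nuclei against 8310.5, 10764 and 8780.5 in rats 2, 4 and 5. Any 2 libraries shared 0 to 16 of the barcodes kept.

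The transcription factors fell into 3 patterns across the neurons. *Pitx3* was highest in dopaminergic-like neurons, *En1* was higher there than in the other 2 large neuron classes, and *Lmx1b* was high in dopaminergic-like, serotonergic-like and *Slc17a6* neurons. The *Lmx1b* level of serotonergic-like neurons was not resolved from that of dopaminergic-like or of *Slc17a6* neurons. *Lmx1a*, *Nr4a2* and *Foxa2* were low in *Gad1* neurons and were not called different between *Slc17a6* and dopaminergic-like neurons, with *Foxa2* lower in the dopaminergic-like neurons in 4 of 4 rats, *Lmx1a* in 3 and *Nr4a2* in 2. *Sox6* was low in *Slc17a6* neurons, intermediate in dopaminergic-like neurons and highest in OPCs (oligodendrocyte precursor cells), astrocytes and a subset of *Gad1* neurons. *Foxa1* was near the limit of detection and *Otx2* had no UMI. Levels below are UMIs of the gene per 10000 UMIs of a class in 1 rat, with no correction for gene length, so they compare classes and not genes.

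**Figure D1:**
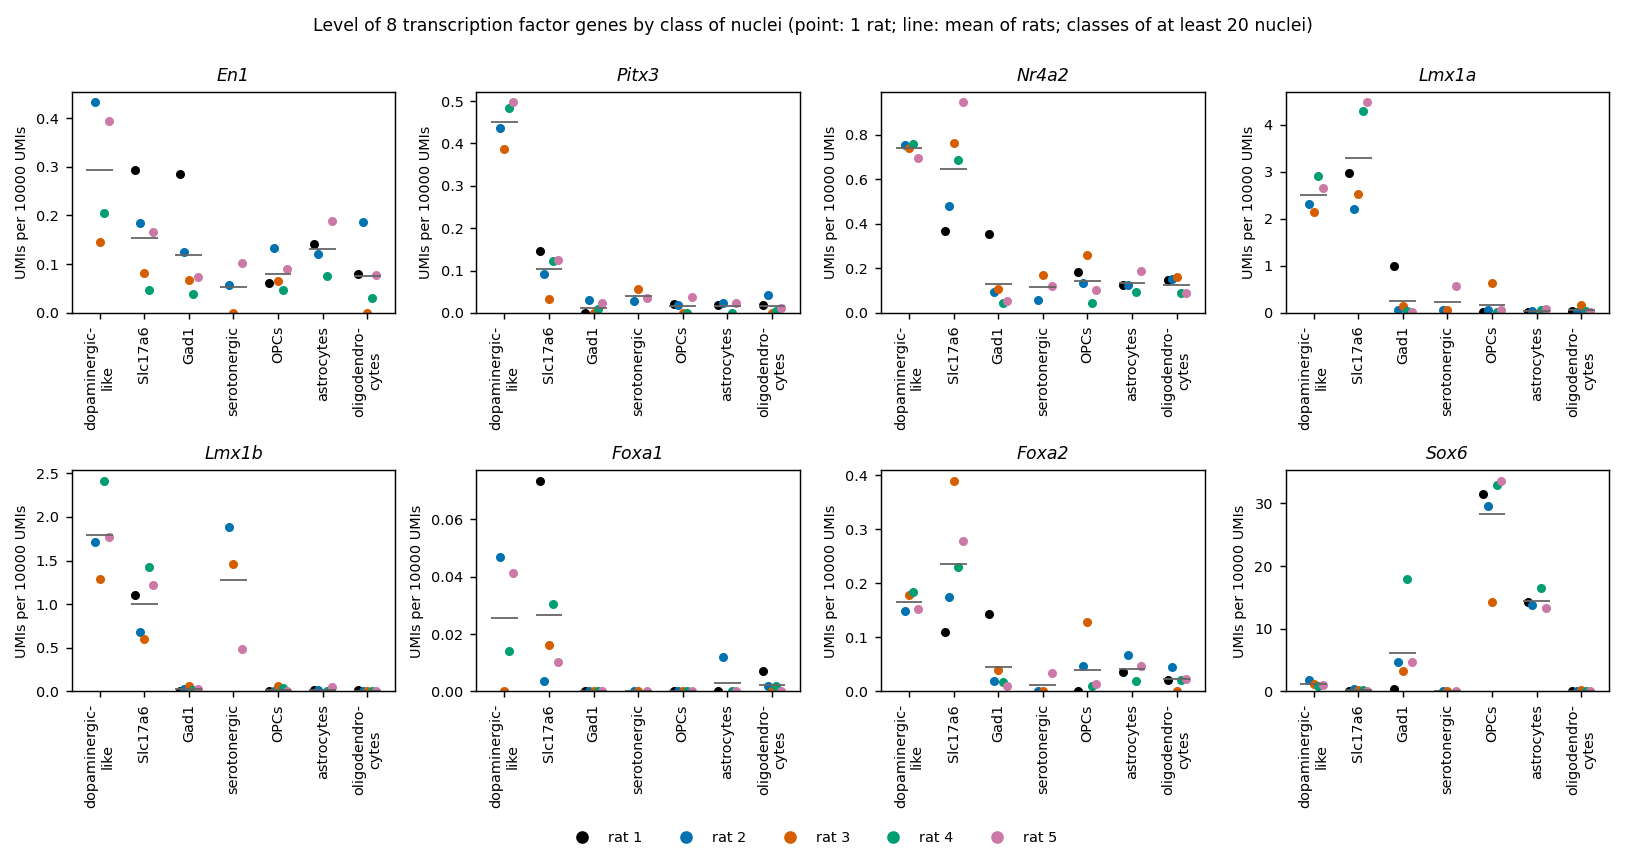
Level of 8 of the genes (y axis, UMIs per 10000 UMIs, a separate scale for each gene) in 7 classes of nuclei (x axis). Each point is 1 rat with at least 20 nuclei of the class, and each line is the mean of those rats. The *Pitx3* points of dopaminergic-like neurons, 0.387 to 0.497, lay above those of every other class, while those of *Lmx1a* and *Nr4a2* overlapped with the *Slc17a6* neurons. *Otx2*, at 0 throughout, is not drawn.

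*Lmx1a*, which with *Lmx1b* sets up the dopamine progenitor domain, stood at 1.59, 2.31, 2.15, 2.91 and 2.66 UMIs per 10000 in the dopaminergic-like neurons of rats 1 to 5. In *Slc17a6* neurons it was 2.97, 2.20, 2.53, 4.29 and 4.48, and in *Gad1* neurons 0.997, 0.0670, 0.147, 0.0350 and 0.0254. The dopaminergic-like and *Slc17a6* ranges overlapped, and both lay above the *Gad1* range. *Lmx1b* was 2.26, 1.71, 1.29, 2.41 and 1.77 in dopaminergic-like neurons and 1.10, 0.681, 0.601, 1.42 and 1.22 in *Slc17a6* neurons, and at most 0.0586 in *Gad1* neurons. Within every rat it was higher in the dopaminergic-like neurons, although the ranges of the rats overlapped. *Lmx1b* is also a factor of serotonin neurons, and the serotonergic-like nuclei carried it at 1.88, 1.46 and 0.481 in rats 2, 3 and 5, the rats with at least 20 such nuclei, above the dopaminergic-like level in rats 2 and 3. In rat 5 the serotonergic-like class also carried *Gad1* RNA, at 2.44 per 10000, and had only 2.06 of *Tph2* (serotonin synthesis).

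*Pitx3*, required for dopamine neurons of the nigra and for *Th* expression in some of them, was at 0.585, 0.436, 0.387, 0.483 and 0.497 per 10000 in dopaminergic-like neurons. Its level was 0.147, 0.0907, 0.0325, 0.122 and 0.124 in *Slc17a6* neurons, and 0 to 0.0300 in *Gad1* neurons. The 3 ranges did not overlap, and no other named class came above 0.0833 in any rat. Neuron sub-clusters set aside for low UMI totals or oligodendrocyte RNA did, at up to 0.626 and 0.228, and the 191 nuclei set aside for low UMI totals in rat 2, with all 4 dopaminergic markers, held 0.585. *En1* was 0.836, 0.432, 0.145, 0.206 and 0.394 in dopaminergic-like neurons against 0.294, 0.185, 0.0812, 0.0478 and 0.165 in *Slc17a6* neurons. The means of *En1* in dopaminergic-like, vascular-like (0.213) and microglia-like (0.190) nuclei differed by less than their spread over rats, so that the order of these classes was not resolved.

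*Nr4a2*, which with its partners drives *Th* and *Slc6a3*, varied little between rats in the dopaminergic-like neurons, at 0.756, 0.743, 0.760 and 0.697 in rats 2 to 5 (0.739 ± 0.0286, SD, n = 4) and 1.17 in rat 1. In *Slc17a6* neurons it was 0.367, 0.478, 0.763, 0.687 and 0.949, and in *Gad1* neurons 0.356, 0.0935, 0.108, 0.0437 and 0.0540. *Foxa2*, a pioneer factor of the floor plate, was 0.167, 0.148, 0.178, 0.185 and 0.152 in dopaminergic-like neurons and 0.110, 0.175, 0.390, 0.230 and 0.278 in *Slc17a6* neurons. Within rats, *Foxa2* was lower in the dopaminergic-like than in the *Slc17a6* neurons in each of rats 2 to 5, and *Nr4a2* was higher in 2 of these 4 rats and lower in the other two. *Foxa1*, which overlaps with *Foxa2* in function, had 1, 12, 0, 2 and 6 UMIs in the dopaminergic-like neurons of rats 1 to 5 and none in any *Gad1* neuron. Its mean was 0.0256 ± 0.0222 per 10000 in dopaminergic-like neurons (SD, n = 4) and 0.0268 ± 0.0279 in *Slc17a6* neurons (n = 5). *Otx2* had 0 UMIs in every barcode of all 5 libraries, kept or not. Whether *Otx2* RNA could be counted at all with this annotation was not tested, so no limit on its share of nuclei is given.

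*Sox6* was 1.25, 1.79, 1.24, 0.909 and 1.07 per 10000 in dopaminergic-like neurons and 0.0734, 0.321, 0.309, 0.200 and 0.0722 in *Slc17a6* neurons, without overlap. In *Gad1* neurons it was 0.427, 4.70, 3.22, 18.0 and 4.70, with the level of rat 4 far above the others. OPC-like nuclei held 31.5, 29.6, 14.2, 33.0 and 33.6, and astrocyte-like nuclei 14.3, 13.8, 16.5 and 13.3 in rats 1, 2, 4 and 5, no such nuclei being named in rat 3. Oligodendrocyte-like nuclei, the mature cells that follow OPCs, held 0.0877 to 0.192. Microglia-like nuclei held a mean of 1.99 ± 0.949 (SD) and vascular-like nuclei 1.23 ± 0.942. Neither was resolved from the dopaminergic-like mean of 1.25 ± 0.382.

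Droplets under 100 UMIs, taken as free RNA, carried the same genes. *En1* was at 0.209, 0.338, 0.953, 0.119 and 0.207 per 10000 there in rats 1 to 5, above its level in the dopaminergic-like neurons of rat 3, and *Nr4a2* at 0.596, 0.289, 1.43, 0.304 and 0.432, again above it in rat 3 alone. *Foxa2* was at 0.119 to 0.513 in free RNA, above its dopaminergic-like level in rats 2, 3 and 5. *Lmx1a* (at most 0.445), *Lmx1b* (at most 0.304) and *Pitx3* (at most 0.227) were below their dopaminergic-like levels in every rat. *Sox6* was at 0.669 to 1.86 there, above its dopaminergic-like level in rat 4. Subtracting an estimate of free RNA changed no call of these transcription factors in the tests below that compare dopaminergic-like with *Gad1* or *Slc17a6* neurons. Over all genes, those called against *Gad1* neurons went from 1301 higher and 1251 lower to 1019 and 983. Against *Slc17a6* neurons they went from 895 and 1107 to 881 and 1038. The estimate of free RNA was 0% for the dopaminergic-like neurons of rats 3 and 4. It was also 0% for the *Slc17a6* neurons of rats 1, 4 and 5 and the *Gad1* neurons of rats 3 and 5. Nothing was subtracted from those sums, so the unchanged calls cannot show how far free RNA matters in them. The part of free RNA in the levels themselves was not tested.

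The first test compared dopaminergic-like with *Gad1* neurons, by the edgeR quasi-likelihood test on UMI sums per class and rat, with the rat as a block and Benjamini-Hochberg adjustment over all genes tested. Of the 7 transcription factors that passed the filter on low counts, 6 were higher and 1 was lower at an adjusted p under 0.05, the same counts as without rat 2. Over all 11121 genes tested, 11.7% were higher and 11.2% lower, 22.9% in all. A gene can pass the filter through its high class alone, so the count describes these 7 genes and not all 9, and *Foxa1* and *Otx2* were tested in no comparison.

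*Lmx1b* (log2 fold change 5.92 ± 0.19 SE, edgeR adjusted p = 1.27e-09) and *Lmx1a* (5.46 ± 0.26, edgeR adjusted p = 1.91e-08) differed most from the *Gad1* neurons. *Pitx3* followed with 4.46 ± 0.29 (edgeR adjusted p = 2.72e-07), *Nr4a2* with 3.36 ± 0.18, *Foxa2* with 3.11 ± 0.32 and *En1* with 2.02 ± 0.21. Each of these 6 was higher in 4 of 4 rats. *Sox6* was lower by a log2 fold change of -2.27 ± 0.39 (edgeR adjusted p = 0.000946), in 4 of 4 rats, and its fold change was -1.62 without rat 4. This difference came from a minority of sub-clusters of *Gad1* neurons, described further on, and the rest held less *Sox6* than the dopaminergic-like neurons in each of rats 2 to 5.

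**Figure D2:**
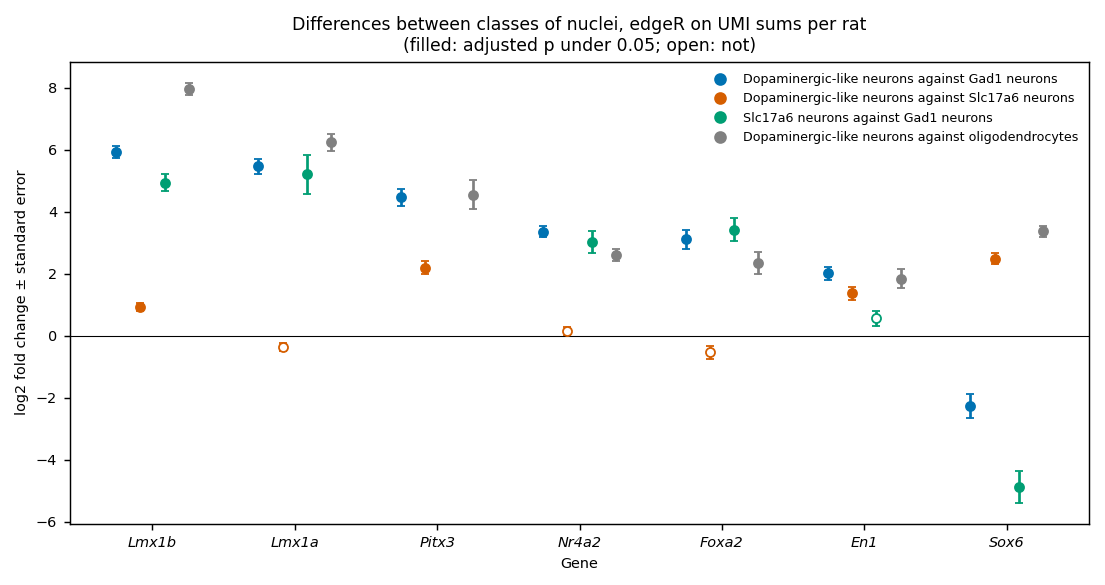
Log2 fold change (y axis, ± standard error of the edgeR fit) of 7 transcription factors (x axis) in 4 comparisons of classes, marked by colour. Filled points passed an adjusted p of 0.05 and open points did not. *Lmx1a*, *Nr4a2* and *Foxa2* were far above 0 against *Gad1* neurons and not called between dopaminergic-like and *Slc17a6* neurons, and *Sox6* lay below 0 against *Gad1* neurons and above 0 against *Slc17a6* neurons.

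Shares of nuclei with a UMI were compared at equal depth. Each nucleus was thinned to 1000 UMIs, as the expected share over all possible draws, and compared by an exact two-sided permutation test that flips the sign of each rat's difference and cannot go below p = 0.125 with 4 rats. *Lmx1a* was then found in 20.8% ± 3.11 (SD, n = 4) of dopaminergic-like nuclei, 0.608% ± 0.434 of *Gad1* neurons and 0.417% ± 0.273 of oligodendrocyte-like nuclei, which serve as a background. *Lmx1b* was found in 16.3% ± 4.28 against 0.303% ± 0.115 of *Gad1* neurons. *Nr4a2* was found in 6.85% ± 0.303 against 0.748% ± 0.369, *Pitx3* in 4.36% ± 0.528 against 0.209% ± 0.187, *En1* in 2.84% ± 1.46 against 0.692% ± 0.406 and *Foxa2* in 1.57% ± 0.102 against 0.225% ± 0.143. All 6 were higher than in *Gad1* neurons in 4 of 4 rats, at the smallest p that the exact permutation test allows. Over 5 rats, the background in oligodendrocyte-like nuclei was 0.0802% for *Lmx1b*, 1.34% for *Nr4a2*, 0.167% for *Pitx3*, 0.837% for *En1* and 0.229% for *Foxa2*. *En1* was found in 2.26% ± 1.47 of microglia-like nuclei. *Sox6* was found in 8.61% ± 2.35 against 22.3% ± 14.4, lower in 4 of 4 rats, but without thinning in only 2 of 4 (21.9% ± 7.93 against 27.1% ± 13.9). Without thinning, *Lmx1a* was detected in 67.7% (95% exact binomial interval 62.0 to 73.0) of the dopaminergic-like nuclei of rat 2, in 31.7% (26.4 to 37.4) in shallow rat 3, in 85.7% (78.6 to 91.2) in rat 4 and in 74.7% (67.3 to 81.2) in rat 5. These intervals cover counting error only.

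The comparison with *Slc17a6* neurons separated the genes. Of the 7 tested, 4 were higher and 0 lower in dopaminergic-like neurons by edgeR, beside 8.54% higher and 10.6% lower (19.1% in all) over all 10475 genes. DESeq2 gave the same 4 and 0, and at an unadjusted p under 0.05 edgeR had 2 lower. *Sox6* was higher by 2.49 ± 0.18 (edgeR adjusted p = 9.92e-08), *Pitx3* by 2.19 ± 0.20 (edgeR adjusted p = 1.55e-06), *En1* by 1.37 ± 0.21 (edgeR adjusted p = 0.000255) and *Lmx1b* by 0.93 ± 0.13 (edgeR adjusted p = 7.89e-05) on the log2 scale, each in 4 of 4 rats. *Nr4a2* stood at 0.14 ± 0.16 (edgeR adjusted p = 0.621), higher in 2 of 4 rats. *Foxa2* stood at -0.54 ± 0.21 (edgeR adjusted p = 0.0935) and was lower in 4 of 4 rats. *Lmx1a* stood at -0.36 ± 0.12 (edgeR adjusted p = 0.0534), and was called lower without rat 2 (-0.52) or without the filter on low counts. Where each neuron was typed by its own UMIs and not by its cluster, with 5 rats in place of 4, the *Sox6* difference shrank to 0.82 (edgeR adjusted p = 0.138). That rule took a neuron with at least 2 of *Slc6a3*, *Slc18a2* and *Ddc* as dopaminergic-like, so these were other sets of nuclei. Dopaminergic-like nuclei then numbered 840, 213, 273 and 315 in rats 2 to 5, and *Slc17a6* neurons 167, 117, 164 and 77. Without the rat as a block *En1* (1.31, edgeR adjusted p = 0.237) and *Lmx1b* (0.88, edgeR adjusted p = 0.214) were no longer called.

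The thinned shares had the same directions. *Pitx3* was found in 1.06% ± 0.543 of *Slc17a6* neurons, 3.30 percentage points fewer than of dopaminergic-like neurons, and *Lmx1b* in 8.85% ± 3.73. *Nr4a2* was found in 6.80% ± 2.10 of *Slc17a6* neurons, a difference of 0.0473 percentage points with an SD of 2.27 over rats (exact permutation p = 0.875). *Foxa2* was found in 2.69% ± 0.770, more often than in dopaminergic-like neurons in 4 of 4 rats.

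Against *Gad1* neurons, the *Slc17a6* neurons carried 4 of the 6 tested genes higher and 1 lower, in 5 rats, beside 1.88% higher and 1.6% lower (3.48% in all) over 10808 genes. *Lmx1a* (log2 fold change 5.21 ± 0.63, edgeR adjusted p = 0.00183), *Lmx1b* (4.94 ± 0.29, edgeR adjusted p = 6.4e-05) and *Nr4a2* (3.02 ± 0.36, edgeR adjusted p = 0.00176) were higher in 5 of 5 rats, and *Foxa2* (3.42 ± 0.38, edgeR adjusted p = 0.00104) in 4 of 5. *Sox6* was lower, at -4.86 ± 0.51 (edgeR adjusted p = 0.000882), and *En1* stood at 0.56 ± 0.24 (edgeR adjusted p = 0.354). *Pitx3* did not pass the filter here. The exception for *Foxa2* was rat 1, whose 32 *Gad1* neurons also held *Slc17a6* at 1.50 per 10000, *Tph2* at 2.35 and *Lmx1a* at 0.997. Oligodendrocyte markers summed to 73.5 in them, beside 8.04 to 31.6 in the other rats, and astrocyte markers to 7.91, and the part of this mixture was not tested.

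Sub-clusters showed that *Slc17a6* neurons were not alike. In rats 1, 4 and 5 each *Slc17a6* sub-cluster carried *Lmx1a*, at 2.07 to 5.89 per 10000. In rats 2 and 3 some carried almost none, 43.5% of the class in rat 2 (175 nuclei) and 30.8% in rat 3 (100 nuclei), at 0.0336 and 0.0581. The remaining *Slc17a6* neurons of these rats held *Lmx1a* at 3.74 and 3.49, above the dopaminergic-like level, as did those of rats 1, 4 and 5. Of the nuclei with almost none, 44 nuclei of rat 2 formed a sub-cluster with *Slc17a7*, another vesicular glutamate transporter, at 2.27 and *Slc17a6* at only 0.366, and 57 nuclei of rat 3 one with *Slc17a7* at 0.574 and *Slc17a6* at 0.765. Where *Lmx1a* was low, the other factors with a UMI were lower than in the remaining *Slc17a6* neurons of the same rat. *Nr4a2* was at 0.0672 against 0.770 in rat 2 and at 0.0581 against 1.04 in rat 3. In rat 3 the gap was smaller for *En1*, at 0.0581 against 0.0902, and for *Sox6*, at 0.174 against 0.361. *Pitx3* was at 0.00841 against 0.149 in rat 2 and at 0 against 0.0451 in rat 3. The sub-clusters were divided at 1 UMI of *Lmx1a* per 10000 after their values had been seen, so no test was made.

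**Figure D3:**
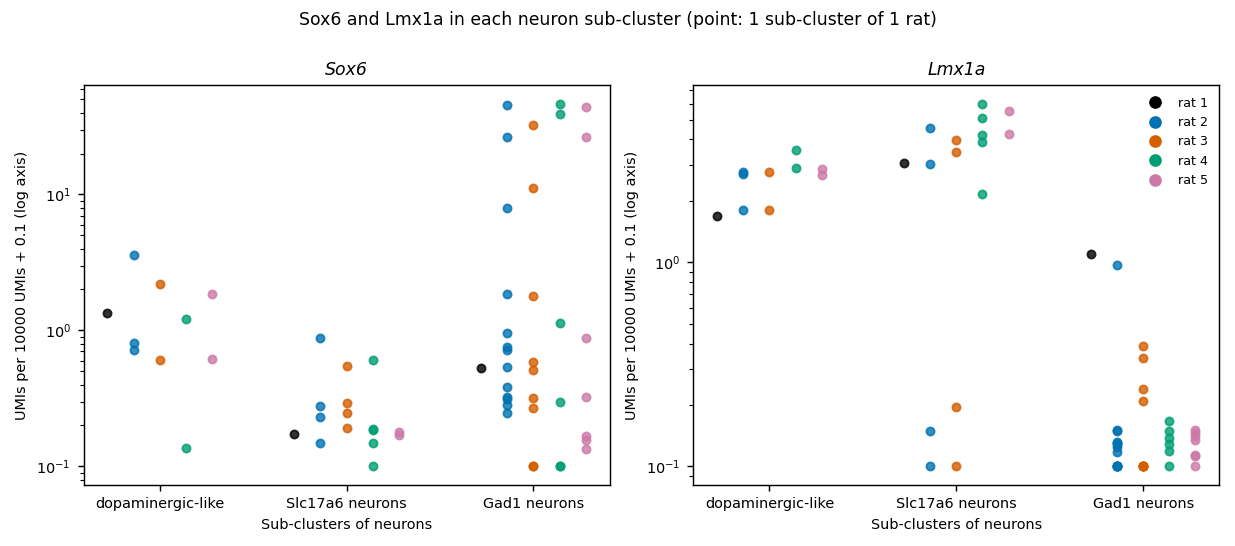
*Sox6* (left) and *Lmx1a* (right) in each neuron sub-cluster of each rat, by class (x axis), as UMIs per 10000 UMIs plus 0.1 on a log axis. Each point is 1 sub-cluster. Between 2 and 3 sub-clusters of *Gad1* neurons in each of rats 2 to 5 lay above 5 UMIs of *Sox6* per 10000, and the *Slc17a6* sub-clusters without *Lmx1a* came from rats 2 and 3.

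*Sox6* in *Gad1* neurons was likewise held by few sub-clusters. Those above 5 per 10000, a limit set after the values had been seen, made up 20.1%, 18.9%, 44.9% and 16.0% of the *Gad1* neurons of rats 2 to 5 and held 90.2%, 93.6%, 99.2% and 97.0% of the *Sox6* UMIs of the class. The remaining *Gad1* neurons held 0.580, 0.251, 0.253 and 0.164 per 10000, below the dopaminergic-like level of the same rat. The sub-clusters above 5 per 10000 ran from 7.81 to 46.5, and rat 1, with 32 *Gad1* neurons in 1 sub-cluster, had none. Among the 10 leading genes by fold of these high sub-clusters, *Pawr*, *Corin*, *Foxo1*, *Grik1* or *Slc7a11* recurred in some and *Pdgfd*, *Pde3a* and *Hs3st2* in others. In the same sub-clusters, summed per rat, *Nr4a2* was 0.0424 to 0.0538 and *Lmx1a* 0 to 0.0485. The OPC markers summed to 1.50 to 7.58 per 10000 in *Gad1* neurons over rats, with the highest value in rat 4, the rat with the highest *Sox6*, and the other rats at 1.50 to 4.28. The astrocyte markers summed to 0.647 to 7.91, lowest in rat 4, and the part of either in the *Sox6* level was not tested.

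Between glial classes, *Sox6*, a brake on oligodendrocyte maturation, was the only transcription factor called with all rats, among the 2 or 3 that passed the filter. In OPC-like against oligodendrocyte-like nuclei it was higher by 8.05 ± 0.28 (edgeR adjusted p = 2.27e-09) in 5 of 5 rats, 1 of 2 genes tested, beside 25.4% higher and 22.4% lower (47.9% in all) over 9373 genes. In astrocyte-like against oligodendrocyte-like nuclei it was higher by 6.97 ± 0.17 (edgeR adjusted p = 3.07e-13) in 4 of 4 rats, 1 of 3 genes tested, beside 24% higher and 24.5% lower (48.5% in all) over 11282 genes, and *En1* stood at 0.28 ± 0.37 but was called at 1.02 without rat 2. *Nr4a2* stood at -0.13 ± 0.27 (edgeR adjusted p = 0.716) and 0.03 ± 0.29 (edgeR adjusted p = 0.961) in these comparisons. Dopaminergic-like neurons exceeded oligodendrocyte-like nuclei in 7 of 7 genes tested, beside 33.2% higher and 31.3% lower (64.5% in all) over 10981 genes, from 1.85 ± 0.31 for *En1* to 7.96 ± 0.20 for *Lmx1b*, with *Sox6* at 3.37 ± 0.17 between them. *En1* was not called there without the rat as a block (1.63, edgeR adjusted p = 0.0694). The oligodendrocyte-like nuclei of rats 2 to 5 were shallower than the dopaminergic-like nuclei, with medians of 2681.5, 1238, 3149 and 2638 UMIs, and the part of depth in these differences was not tested.

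Several of the transcription factors were often detected in the same dopaminergic-like nucleus. Of the 9 genes, a mean of 2.86, 0.958, 3.16 and 2.83 were detected per nucleus in rats 2 to 5, the low value being that of shallow rat 3. At least 3 were detected in 58.2%, 7.32%, 69.2% and 58.6% of nuclei, and 6 at most. In *Gad1* neurons the mean was 0.495, 0.222, 0.619 and 0.335, and in *Slc17a6* neurons 1.34, 0.634, 2.54 and 2.46. After thinning to 1000 UMIs the means were 0.615 ± 0.0754 in dopaminergic-like and 0.251 ± 0.136 in *Gad1* neurons, higher in 4 of 4 rats (exact permutation p = 0.125, the smallest possible). Rat 3 was still the lowest dopaminergic-like value, at 0.506 beside 0.634 to 0.678. The thinned mean was 0.334, 0.392, 0.586 and 0.634 in the *Slc17a6* neurons of rats 2 to 5, close to the dopaminergic-like value in rat 5. It was 0.752 to 0.951 in OPC-like and 0.674 to 0.778 in astrocyte-like nuclei, where *Sox6* was high and at most 3.70% of nuclei had 3 or more of the genes without thinning.

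**Figure D4:**
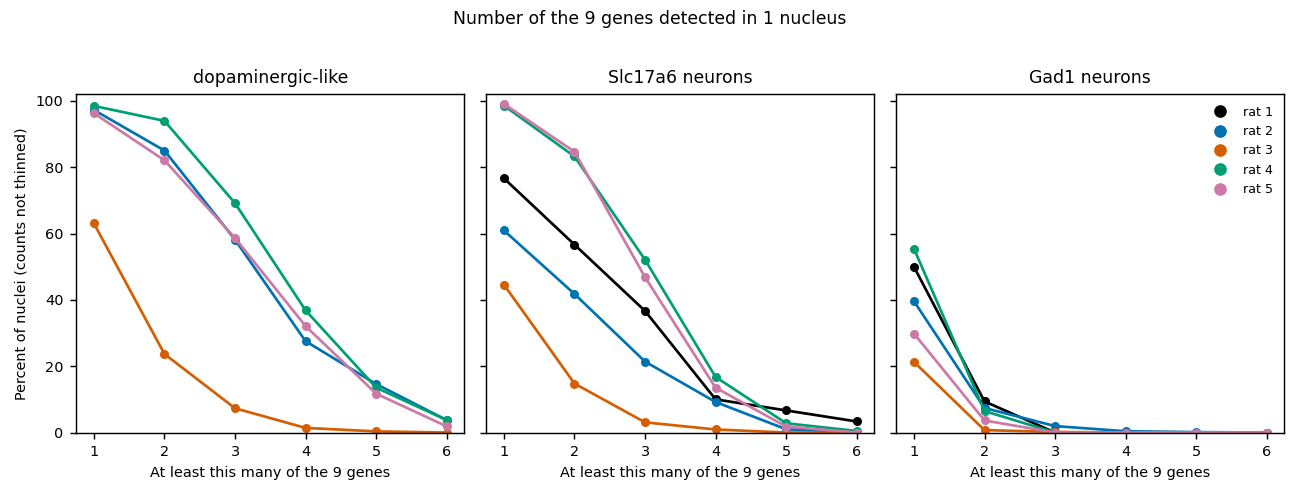
Percent of nuclei (y axis, counts not thinned) with at least 1, 2, 3, 4, 5 or 6 of the 9 genes detected (x axis), in 3 neuron classes, with 1 line per rat with at least 20 nuclei of the class. At 3 or more genes the dopaminergic-like lines of rats 2, 4 and 5 stood at 58.2% to 69.2%, that of rat 3 at 7.32%, and those of the *Gad1* neurons at 1.95% or less. The lines of the *Slc17a6* neurons stood at 36.7%, 21.4%, 3.08%, 52.1% and 46.8% in rats 1 to 5.

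Pairs of genes were counted in the same dopaminergic-like nucleus and set beside the number that their separate shares give within bins of like depth. *Lmx1a* and *Lmx1b* shared 356 nuclei beside a computed 350.2, and *Nr4a2* and *Lmx1a* 220 beside 214.3. *Pitx3* and *Nr4a2* shared 89 beside 89.6. *En1* and *Sox6* shared 60 beside 49.2, above the computed number in 4 of 4 rats, by 0.49 ± 0.34 on the log2 scale (SD, n = 4). This pair was singled out after all 21 had been seen, and no pair was tested.

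Dopaminergic-like nuclei with at least 1 UMI of *Slc17a6* (49, 36 and 31 nuclei in rats 2, 4 and 5) were compared with those without (245, 97 and 131). *Sox6* was lower by a log2 fold change of -1.50 ± 0.22 (edgeR adjusted p = 2.36e-05) in 3 of 3 rats, the only 1 of 7 genes called, beside 1.04% lower and 0.902% higher (1.94% in all) over 8762 genes. The call was lost without the rat as a block (-1.51, edgeR adjusted p = 0.583) and with DESeq2 (-1.60, adjusted p = 0.353). The other 6 lay between -0.29 ± 0.29 for *En1* and 0.45 ± 0.19 for *Nr4a2*, with edgeR adjusted p from 0.366 to 0.993. Of 14 other regulators 1 was lower, *Pbx3* (-0.69 ± 0.12), and of 14 genes at work in dopamine neurons 1 was higher and 2 lower. *Drd2* (-0.83 ± 0.13), the dopamine autoreceptor, and *Kcnj6* (-0.80 ± 0.15), the GIRK2 potassium channel, fell, and *Aldh1a1* (0.73 ± 0.13), an aldehyde dehydrogenase of dopamine neurons, rose. *Kcnj6* was not called without rat 2 or with DESeq2, and none of these 4 without the rat as a block. Median depths were close, 8515, 10968 and 9358 UMIs with *Slc17a6* against 8250, 10349 and 8636 without. The mean *Slc17a6* level of all dopaminergic-like nuclei was 0.271, on the same scale as the levels above. It was 0.203 in astrocyte-like, 0.215 in oligodendrocyte-like, 0.261 in OPC-like, 0.373 in vascular-like and 0.585 in microglia-like nuclei. The part of free RNA in these UMIs was not tested, so the split is by detected UMIs and names no subtype of neuron.

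Because *Otx2* had no UMI, the planned contrast of *Sox6* with *Otx2* nuclei could not be made, and nuclei with at least 1 UMI of *Sox6* (96, 40, 25 and 36 in rats 2 to 5) were compared with those without (198, 247, 108 and 126) instead, a choice made after seeing the data. Of the other 6 genes 0 were called by edgeR, beside 1.9% higher and 2.64% lower (4.54% in all) over 8532 genes. DESeq2 also called 0, and 1 (*Lmx1b*) was higher at an unadjusted p under 0.05. *En1* stood at 0.46 ± 0.25 (edgeR adjusted p = 0.492) and *Lmx1b* at 0.31 ± 0.13 (edgeR adjusted p = 0.208), both higher in 4 of 4 rats, and *Lmx1a* at -0.18 ± 0.12, lower in 4 of 4. Of 14 other regulators 3 were higher and 4 lower, and of 13 genes at work in dopamine neurons 3 were higher and 1 lower. *Aldh1a1* fell by 1.57 ± 0.14 on the log2 scale (edgeR adjusted p = 1.04e-18) and *Bcl11a*, a zinc finger factor of a dopamine neuron subset, by 1.52 ± 0.17 (edgeR adjusted p = 1.17e-13). *Satb1* (0.52 ± 0.12), a chromatin organizer, *Pbx3* (0.50 ± 0.10), a homeodomain cofactor, and *Kcnj6* (0.53 ± 0.12) rose. *Tcf12* (-0.63 ± 0.10), a basic helix-loop-helix partner, and *Foxp2* (-0.31 ± 0.10) fell. *Foxp2* was not called without rat 2 or rat 4, and *Satb1* not without rat 2, and none of these 7 was called without the rat as a block. Nuclei with *Sox6* were deeper, at a median of 9852.5, 2167, 11570 and 8934.5 UMIs against 7904, 1758, 10711.5 and 8712.5, and the part of depth was not tested.

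The sub-clusters of dopaminergic-like neurons, built without *Sox6*, differed in it. Rat 2 had sub-clusters at 3.51, 0.712 and 0.618 per 10000, rat 3 at 2.11 and 0.507, rat 4 at 1.12 and 0.0371 and rat 5 at 1.76 and 0.512. The highest of each rat had *Tmem207* and *Fam160a1* among its 10 leading genes, with *Etv5* or *Ntf3*, whereas *Col24a1*, *Plod2* or *Raver2* led the lower ones. *Pitx3* was 0.639, 0.598 and 0.510 in the *Sox6*-high sub-clusters of rats 2, 3 and 4 against 0.303, 0.209 and 0.371 in the rest, and 0.479 against 0.512 in rat 5. *Nr4a2* did not follow *Sox6* in one direction, at 0.708, 0.774, 0.817 and 0.741 against 0.787, 0.716, 0.519 and 0.662.

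Other regulators of midbrain dopamine neurons, 22 genes listed by name, behaved partly like the 9. Against *Gad1* neurons 17 were tested, 11 higher and 4 lower, beside 11.7% and 11.2% of all genes. *Bnc2* (6.12 ± 0.18), a zinc finger gene, *Foxp2* (3.39 ± 0.16), a forkhead gene, and *Ebf3* (3.05 ± 0.30), of the early B cell factor family, rose most, and *Ebf2* (-3.88 ± 0.32), *Zeb2* (-2.44 ± 0.23) and *Rxrg* (-1.36 ± 0.28) fell most. *Rxrg* was not called without rat 2 or without the rat as a block, nor *Ebf2* and *Zeb2* with neurons typed by their own UMIs. Against *Slc17a6* neurons 15 were tested, 4 higher and 4 lower, beside 8.54% and 10.6% of all genes. *Satb1* (1.02 ± 0.15) and *Bnc2* (0.86 ± 0.16) rose, and *Ebf2* (-5.19 ± 0.20), *Zeb2* (-2.09 ± 0.11) and *Ebf3* (-1.05 ± 0.12) fell. With neurons typed by their own UMIs, *Zeb2* and *Ebf3* turned to 0.27 and 0.20, and neither these nor *Ebf2* (-0.88) were called. *Satb1*, *Bnc2* and *Ebf3* were not called without the rat as a block.

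Of the genes at work in dopamine neurons, 15 were in the files. Against *Gad1* neurons all 15 were tested, 13 higher and 0 lower by edgeR and by DESeq2, and 0 lower at an unadjusted p under 0.05, beside 11.7% higher and 11.2% lower over all genes. Against *Slc17a6* neurons 11 of 14 were higher and 0 lower by either tool, beside 8.54% and 10.6% of all genes, and 1 was lower at an unadjusted p under 0.05. *Gch1*, which makes the cofactor of tyrosine hydroxylase, was higher by 4.40 ± 0.23 and 4.41 ± 0.16 in these comparisons, and *Slc10a4*, a synaptic vesicle protein, by 4.61 ± 0.29 and 3.39 ± 0.36. *Chrnb3*, a nicotinic receptor subunit, was higher by 5.20 ± 0.25 against *Gad1* neurons, and *Drd2* by 2.97 ± 0.19 against *Slc17a6* neurons. *Bdnf*, a neurotrophin, was 2.53 ± 0.31 higher in *Slc17a6* than in *Gad1* neurons and stood at -0.08 ± 0.19 between dopaminergic-like and *Slc17a6* neurons. *Ret* and *Chrna6* were called higher in *Slc17a6* than in *Gad1* neurons with all rats, at 2.23 ± 0.34 and 2.06 ± 0.37, but neither was called without rat 5, nor *Ret* without rat 4 or *Chrna6* without rat 3, nor either without the rat as a block.

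Across 40 sums of a class in a rat, likeness was measured as Pearson's r of log2(UMIs per 10000 + 0.1) with each of 14064 genes, as a description, since the sums share libraries and depth. *Nr4a2* and *Foxa2* were each other's nearest gene (r = 0.882), and *Lmx1a* came next for both (0.877 and 0.848). *Lmx1a* was nearest to *Ebf3* (0.916) and *Foxp2* (0.894), and *Lmx1b* to *Bdnf* (0.918). *Pitx3* was nearest to *Col24a1* (0.886) and *Tmem207* (0.876), which led *Sox6*-low and *Sox6*-high dopaminergic-like sub-clusters, and *En1* to *Th* (0.750), *Cck* (0.739) and *Nrgn* (0.738). *Sox6* was nearest to *Adamts5* (0.849), *Galnt10* (0.796) and *Adamts17* (0.793), and its r with the other factors ran from -0.44 with *Lmx1b* to -0.04 with *En1*.

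Many UMIs of these genes lay in barcodes that were not kept, which include droplets of few UMIs and barcodes that failed another filter. The limit on mitochondrial UMIs removed 3121 of 5218 barcodes of at least 1000 UMIs in rat 1, 3514 of 13176 in rat 2 and 18 to 411 in the others, and the limit of 5000 genes removed 3 to 327 per rat. Barcodes kept held 22.7% to 46.6% of all UMIs of a library. They held 39.6% to 75.1% of the *Sox6* UMIs (median 71.9%), 14.2% to 78.7% of those of *Lmx1a* (median 55.5%) and 11.5% to 76.6% of those of *Lmx1b* (median 48.0%). For *Pitx3* the median was 29.0%, for *Nr4a2* 23.0%, for *Foxa2* 16.5% and for *En1* 14.1%. In rat 1 the kept barcodes held 14.2% of *Lmx1a* and 11.5% of *Lmx1b*, the lowest of the rats, and this was also the rat with fewest dopaminergic-like nuclei.

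**Figure D5:**
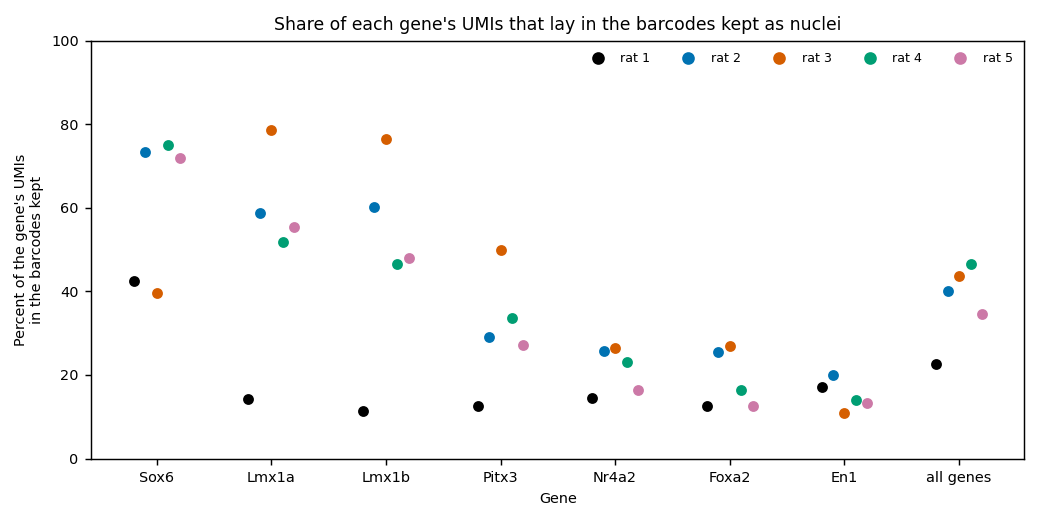
Percent of all UMIs of each gene that lay in the barcodes kept as nuclei (y axis), for 7 transcription factors and for all genes together (x axis), with 1 point per rat. The points of *En1* (11.0% to 20.1%) lay below those of all genes (22.7% to 46.6%), and those of *Sox6* in rats 2, 4 and 5 lay above them.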

How the data were processed

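The authors deposited UMI counts, unfiltered matrices of gene by barcode from 10x Genomics 3′ v3.1 libraries, before any correction or filter. Submitters' notes name Cell Ranger 8.0.1 whereas the matrix headers name an earlier major version, and the genome build and annotation release are not given in the sources used here. The study then used SoupX, SCTransform and integration, which were not applied here, and removed doublets, which was done differently here. Barcodes passing the filter (22084) were clustered per library in scanpy 1.11.5 (2000 variable genes, 10 principal components, Leiden resolution 1.0), and neurons again with 30 components at resolution 2.0. The members and lists were chosen with earlier results of these data known, and the thresholds that named or set aside clusters (4405 barcodes of mixed type, 425 neurons) after clusters had been seen. The 1068 barcodes with the highest Scrublet scores, 0.8% per 1000 barcodes, were removed as doublets, since Scrublet's own threshold called 2 to 5 per library. UMI sums per class and rat, with at least 20 nuclei in both classes, were tested with edgeR 4.0.16 (TMM, filterByExpr, quasi-likelihood, rat as block), with standard errors taken as the log2 fold change over the root of F. Classes of a rat come from the same animal, which is where the pairing comes from. They were clustered from the same nuclei, so p-values treat them as given. With the rat as a block, these p-values set the difference between classes against its variation over rats. Genes that move with the 9 stayed in the clustering. The fit of dopaminergic-like against *Gad1* neurons and the thinning were tested on simulated data, and the other comparisons were not simulated. The named genes were all 9 members, up to 3 genes per direction of each list with the largest change in every library, and the 3 genes most like each member. One gene that this rule names is not reported here. Alternatives were DESeq2 1.42.0, its size factors, no block, no filter, doublets kept, nuclei of at least 2000 UMIs, neurons typed by their own UMIs, free RNA subtracted, and each rat left out. Low-depth sub-clusters kept, and the comparison of nuclei with and without *Sox6*, were added after seeing the data. Ependymal markers were not scored.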

Additional observations from a re-analysis of the deposited data

Results flagged for a closer look

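In 61 groups of 4 or 5 rats, 14 had a highest or lowest rat whose gap to the nearest other rat was too large a part of the range by Dixon's test at 95%, which chance gives in about 1 in 20 groups of continuous values. That rate does not hold for counts of a few UMIs, since the gap is the whole range wherever all other rats are at 0. In *Gad1* neurons, rat 1 was highest for *Nr4a2* (0.356 UMIs per 10000), *Lmx1a* (0.997) and *Foxa2* (0.142), and rat 4 for *Sox6* (18.0). In OPCs, rat 3 was highest for *Lmx1a* (0.645) and lowest for *Sox6* (14.2). Its OPC markers summed to 26.6, beside 50.5 to 70.6 in the other rats, and its oligodendrocyte markers to 85.4, beside 34.0 to 70.7. In oligodendrocytes rat 3 was highest for *Lmx1a* (0.160) and rat 1 for *Foxa1* (0.00721, 2 UMIs). In astrocytes, rat 2 was highest for *Foxa1* (0.0121, 2 UMIs, 0 in the other rats). In microglia, rat 3 was highest for *Lmx1b* (0.380) and rat 1 for *Foxa1* (0.0494, 1 UMI, 0 in the other rats). In rat 3 the microglia markers summed to 13.9, beside 34.1 to 52.5, and the neuron markers to 19.1, beside 5.95 to 13.4. In vascular nuclei, rat 1 was lowest for *En1* (0.0818), rat 4 highest for *Lmx1a* (1.08, 13 UMIs in 1 nucleus) and rat 2 lowest for *Foxa2* (0.0545). The part of these mixtures was not tested.

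UMIs of 8 genes also lay in barcodes that were not kept. As the median over libraries of the percent of a gene's UMIs, this was 85.9% for *En1*, 71.0% for *Pitx3*, 77.0% for *Nr4a2*, 44.5% for *Lmx1a*, 52.0% for *Lmx1b*, 80.0% for *Foxa1*, 83.5% for *Foxa2* and 28.1% for *Sox6*.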

How the results depend on the processing

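Of 1286 refitted log2 fold changes, 15 changed sign, 42 were no longer called and 3 were newly called. Without the rat as a block, genes called fell to 672 (from 2552) for dopaminergic-like against *Gad1* neurons, to 412 (from 2002) against *Slc17a6* neurons with 2 transcription factors higher, to 72 (from 376) for *Slc17a6* against *Gad1* neurons, to 4246 (from 7081) for dopaminergic-like against oligodendrocyte-like nuclei, to 2733 (from 4486) for OPC-like against oligodendrocyte-like nuclei, and to 1 each for dopaminergic-like nuclei with *Slc17a6* (from 170, 0 factors lower) and with *Sox6* (from 387). With neurons typed by their own UMIs, in 5 rats, 1475 and 817 genes were called in the first 2 of these, and *Zeb2* (0.27) and *Ebf3* (0.20) turned from lower to higher in the second. DESeq2 called 1293 genes against *Slc17a6* neurons, 33 with *Slc17a6* (0 factors lower) and 166 with *Sox6*. With low-depth sub-clusters kept, 1030 genes were called against *Slc17a6* neurons in 5 rats, the *Lmx1a* level was 2.13 per 10000, the *Foxa1* share turned to -0.0296 percentage points and *Pitx3* with *Slc17a6* to -0.084. Without the filter on low counts, 1 factor was lower against *Slc17a6* neurons, 1076 genes were called for *Slc17a6* against *Gad1* neurons, *Foxa2* with *Slc17a6* turned to -0.015, and *Nr4a2* in astrocyte-like nuclei to -0.033. From 2000 UMIs the latter was -0.0068 and the *Nr4a2* level 0.771. Other sets of genes or nuclei, or another number of rats, entered some of these fits, and the cause was otherwise not tested.

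Leaving out 1 rat at a time gave 0 to 1 factors lower against *Slc17a6* neurons, where *Nr4a2* ran from -0.086 to 0.35 and its share from -0.861 to 0.975 percentage points. It gave 125 to 895 genes for *Slc17a6* against *Gad1* neurons (895 without rat 1, 125 without rat 4). In glia, *Nr4a2* ran from -0.28 to 0.0078 (OPC-like) and from -0.31 to 0.30 (astrocyte-like), *En1* from -0.060 to 1.02 (astrocyte-like), and 1 to 2 factors were higher in astrocyte-like nuclei. With *Slc17a6*, 108 to 212 genes were called, *Pitx3* ran from -0.017 to 0.14 and *Foxa2* from -0.038 to 0.16. With *Sox6*, 200 to 396 genes were called, *Pitx3* ran from -0.20 to 0.31 and *Foxa2* from -0.38 to 0.43. The contrast of *Sox6* with *Otx2* nuclei and their joint count could not be made, since *Otx2* had 0 UMIs.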
